A study of Drosophila melanogaster with 8 samples.

Results

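The genes described here are 10 genes of the germline ping-pong cycle of PIWI-interacting RNAs (piRNAs): aub, AGO3, vas, spn-E, krimp, tud, qin, tej, BoYb and squ. They were picked by symbol from the 16018 genes of the count table. All 10 were found, and all 10 passed the filter on low counts (at least 1 CPM, counts scaled to library size, in at least 2 libraries), which 12570 genes passed in all.

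In the fly germline, transcripts of transposons are cut in nuage, a body at the outer face of the nucleus. Aubergine and Argonaute 3, PIWI-clade Argonaute proteins, each cut a transcript guided by a piRNA and thereby make the precursor of the piRNA that the other one carries, which gives the cycle its name. The helicases Vasa and Spindle-E and a set of Tudor-domain proteins, which bind methylated arginines of PIWI proteins, act in the same body. In the testis the pathway is known for silencing the Stellate repeats. Somatic gonadal cells make piRNAs by another route, known best from the ovary, which uses Piwi and the protein Yb and needs neither Aubergine nor Argonaute 3.

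The libraries hold poly(A)+ RNA of testis cells of Drosophila melanogaster from 2 crosses, tj-GAL4 with UAS-GFP and eya-GAL4 with UAS-GFP. GAL4 is a yeast activator that switches on green fluorescent protein (GFP) where the driver gene's enhancer is active, and in these crosses it marks somatic cyst cells, the support cells around the germline, early ones with tj-GAL4 and mature ones with eya-GAL4 per the labels. The 4 groups were sorted GFP-positive tj-GAL4 cells, the unsorted tj-GAL4 cell suspension, sorted GFP-positive eya-GAL4 cells and the unsorted eya-GAL4 cell suspension, with 2 libraries each. Both the sorted and the unsorted cells of a strain carried its driver and the GFP transgene. The labels used here give no age and no number of animals, and a GAL4 driver marks the cells in which it is active, whatever their stage.

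Gene counts ran from 10771009 to 25344721 per library. Levels are CPM after TMM scaling, a scaling that lines up the bulk of genes between libraries, changes are log2 fold changes ± SE, and adjusted p-values come from edgeR's quasi-likelihood test over all 12570 genes, with n = 2 libraries per group and a call under 0.05. The tj-GAL4 unsorted replicate 2 library stood apart: mitochondrially encoded genes took 31.7% of its counts, against 4.68% to 19.8% in the other 7, and 4893 genes differed by more than 2-fold between the tj-GAL4 unsorted libraries, against 877 to 1440 between the replicates of the other groups. The 6 mature cyst markers (eya, so, Six4, Abd-B, Nrx-IV and nord) summed to 592 to 868 CPM in the 4 sorted libraries, against 156 to 188 CPM in the 4 unsorted ones. Nrx-IV alone gave 302.8 to 523.5 CPM of the sorted sums. In each strain 5 of the 6 rose in sorted cells and 1, Abd-B, fell. Its change was -2.57 in tj-GAL4 (adjusted p = 0.027, edgeR) and -1.70 in eya-GAL4 cells (adjusted p = 0.039). Both of these calls were lost without any 1 sorted library. The 8 early cyst markers summed to 560 to 793 CPM in sorted libraries, against 312 to 427 CPM in unsorted ones. In the eya-GAL4 sorted libraries dome, the receptor of JAK-STAT signalling, gave 405 and 331 CPM of that sum, and of the 8 markers 3 rose and 1, chinmo, fell there (-1.89, adjusted p = 0.018, edgeR), a call lost without any 1 eya-GAL4 library. In tj-GAL4 sorted cells 4 of the 8 early cyst markers rose and none fell. The 17 spermatocyte markers still summed to 3298 to 6957 CPM in sorted libraries, against 7080 to 9708 CPM in unsorted ones, and every marker of the early germline, spermatocyte and spermatid lists had reads in the sorted libraries. In such bulk RNA, fewer cells of a type and less RNA per cell cannot be told apart.

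All 10 genes had reads in all 8 libraries, sorted ones included. In tj-GAL4 cells 1 gene, tud, rose in the sorted cells and none fell, where 8.98% of all tested genes were called higher and 2.38% lower. In eya-GAL4 cells tud rose, and AGO3, krimp and aub fell, where 28.0% of all tested genes were called higher and 20.0% lower. The median log2 change of the 10 genes was 0.23 in tj-GAL4 and -0.52 in eya-GAL4 cells, beside medians of -0.08 and -0.09 over all tested genes. The tj-GAL4 median had the other sign, -0.25, without tj-GAL4 unsorted replicate 2, beside -0.009 over all tested genes.

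**Figure D1:**
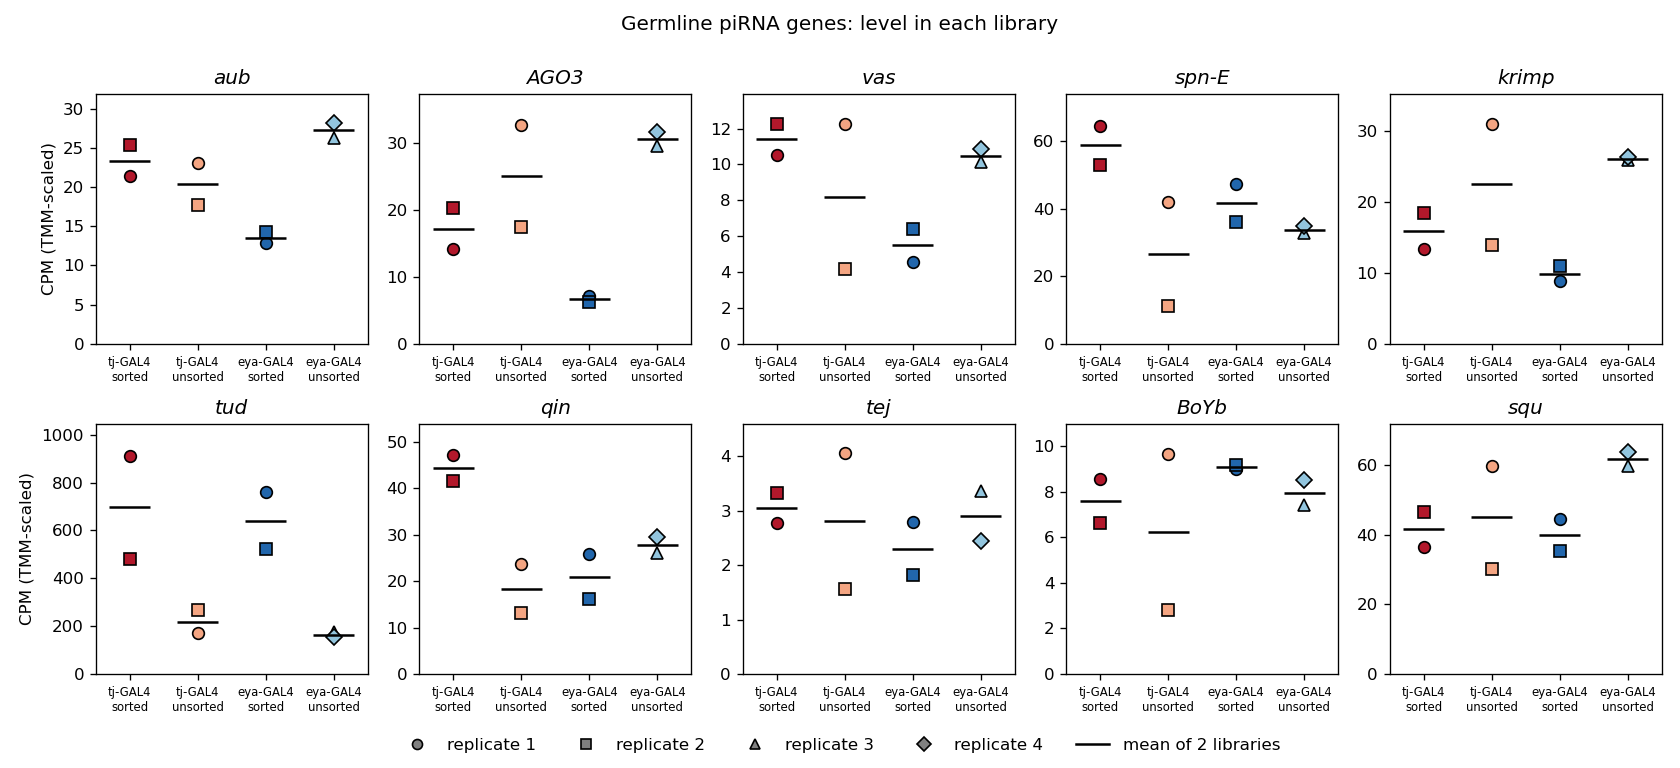
Each panel shows 1 gene, with its level in TMM-scaled CPM on the vertical axis from 0 and the 4 groups on the horizontal axis, sorted left of unsorted in each strain; symbols are libraries and lines are means of 2. tud sat at 480.2 CPM or more in the 4 sorted libraries and at 265 CPM or less in the 4 unsorted ones, while AGO3 had its lowest values, 7.13 and 6.31 CPM, in eya-GAL4 sorted cells.

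The Argonautes of the cycle come first. aub (FBgn0000146; dm6 2L, 10997819 to 11001476, minus strand) encodes Aubergine, which in the germline carries mainly piRNAs antisense to transposons. It had 21.4 and 25.3 CPM in tj-GAL4 sorted replicates 1 and 2, against 23.1 and 17.7 CPM in tj-GAL4 unsorted replicates 1 and 2. It had 12.8 and 14.3 CPM in eya-GAL4 sorted replicates 1 and 2, against 26.3 and 28.2 CPM in eya-GAL4 unsorted replicates 3 and 4. The tj-GAL4 groups overlapped, whereas both eya-GAL4 sorted libraries lay below all other 6. aub fell by 1.01 ± 0.30 in eya-GAL4 sorted cells (adjusted p = 0.026, edgeR) and had a change of 0.20 ± 0.29 in tj-GAL4 sorted cells (adjusted p = 0.65). The eya-GAL4 call held without any 1 tj-GAL4 library and was lost without any 1 eya-GAL4 library, at changes of -1.09 to -0.93 (adjusted p up to 0.14).

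AGO3 (FBgn0250816; 3L, 23554593 to 23689640, plus strand) encodes Argonaute 3, the partner that carries mainly sense piRNAs. Its level was 14.1 and 20.2 CPM in tj-GAL4 sorted cells, against 32.6 and 17.35 CPM in tj-GAL4 unsorted cells. It was 7.13 and 6.31 CPM in eya-GAL4 sorted cells, against 29.5 and 31.6 CPM in eya-GAL4 unsorted cells. The eya-GAL4 groups lay far apart, with the sorted libraries the lowest of all, and the tj-GAL4 groups overlapped through unsorted replicate 2. AGO3 fell by 2.19 ± 0.39 in eya-GAL4 sorted cells (adjusted p = 0.0045, edgeR), a 4.55-fold lower level. This call held without each of the 8 libraries in turn (-2.27 to -2.10), but only just without eya-GAL4 sorted replicate 2. In tj-GAL4 sorted cells its change was -0.54 ± 0.37 (adjusted p = 0.33, edgeR). That change was -0.95 without tj-GAL4 unsorted replicate 2 and -0.012 without tj-GAL4 unsorted replicate 1.

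Within single libraries, aub stood higher relative to AGO3 in every sorted library than in every unsorted one. The ratio of their reads per kilobase was 1.60 and 1.32 in tj-GAL4 sorted cells, against 0.746 and 1.07 in tj-GAL4 unsorted cells. It was 1.89 and 2.39 in eya-GAL4 sorted cells, against 0.940 and 0.942 in eya-GAL4 unsorted cells. This ratio does not depend on the scaling of the libraries.

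The helicase genes behaved less evenly between libraries. vas (FBgn0283442; 2L, 15061656 to 15074311, plus strand) encodes Vasa, a DEAD-box RNA helicase and a defining protein of germ cells. It had 10.6 and 12.3 CPM in tj-GAL4 sorted cells, against 12.2 and 4.16 CPM in tj-GAL4 unsorted cells, and 4.55 and 6.43 CPM in eya-GAL4 sorted cells, against 10.1 and 10.9 CPM in eya-GAL4 unsorted cells. The tj-GAL4 sorted levels therefore reached those of unsorted testis cells, and the eya-GAL4 sorted libraries lay below both unsorted libraries of that strain. Neither change was called with all 8 libraries: it was 0.47 ± 0.49 in tj-GAL4 (adjusted p = 0.51, edgeR) and -0.93 ± 0.50 in eya-GAL4 cells (adjusted p = 0.15). With the compared groups alone the eya-GAL4 change was -0.90 and called (adjusted p = 0.011, edgeR). The tj-GAL4 change was 1.46 without unsorted replicate 1, and had the other sign, at -0.12, without unsorted replicate 2.

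spn-E (FBgn0003483; 3R, 15837419 to 15844415, plus strand) encodes Spindle-E, a helicase with a Tudor domain that is needed for germline piRNAs. It had 64.6 and 53.0 CPM in tj-GAL4 sorted cells, against 42.1 and 11.1 CPM in tj-GAL4 unsorted cells. It had 47.2 and 36.02 CPM in eya-GAL4 sorted cells, against 32.7 and 34.8 CPM in eya-GAL4 unsorted cells. Sorted libraries lay above unsorted ones in both strains without overlap, but the lowest value by far came from tj-GAL4 unsorted replicate 2. The change was 1.14 ± 0.54 in tj-GAL4 (adjusted p = 0.19, edgeR) and 0.30 ± 0.54 in eya-GAL4 cells (adjusted p = 0.65), and neither passed the test. The tj-GAL4 change was 0.46 without unsorted replicate 2 and 2.41, called, without unsorted replicate 1, and the eya-GAL4 change had the other sign, -0.38, when libraries were scaled by the deposited totals.

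Of the Tudor genes, krimp, tud, tej, qin and BoYb, 1 rose in both strains and 1 fell in eya-GAL4 cells. tud (FBgn0003891; 2R, 21183322 to 21192913, plus strand) encodes Tudor, the large scaffold protein with many Tudor domains that gave the family its name and that germ plasm needs. It had 912 and 480.2 CPM in tj-GAL4 sorted cells, against 169 and 265 CPM in tj-GAL4 unsorted cells. It had 759 and 523 CPM in eya-GAL4 sorted cells, against 175.5 and 153 CPM in eya-GAL4 unsorted cells. Every sorted library was above every unsorted one, which held for no other of the 10 genes over both strains, while none of the 10 had every sorted library below (26.3% and 13.5% of all tested genes). tud rose by 1.68 ± 0.44 in tj-GAL4 sorted cells (adjusted p = 0.044, edgeR) and by 1.97 ± 0.44 in eya-GAL4 sorted cells (adjusted p = 0.010). Leaving out 1 library gave changes of 1.11 to 2.07 in tj-GAL4 cells and 1.67 to 2.21 in eya-GAL4 cells.

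The tj-GAL4 call of tud held without any 1 of 3 libraries, the unsorted replicates and sorted replicate 2. It was lost at 1.11 (adjusted p = 0.28) when sorted replicate 1 was left out, and when any 1 eya-GAL4 library was left out (adjusted p up to 0.090), which changes only the shared estimate of spread. The eya-GAL4 call was lost without either unsorted library or without sorted replicate 1 (adjusted p up to 0.090). With libraries scaled by the deposited totals the changes were 1.53 and 1.28 and neither was called.

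tud dominated the reads of the set. It took 80.6% and 67.9% of the reads of the 10 genes in tj-GAL4 sorted cells, against 41.6% and 70.3% in tj-GAL4 unsorted cells. It took 82.4% and 79.3% in eya-GAL4 sorted cells, against 44.3% and 39.4% in eya-GAL4 unsorted cells. The 70.3% of tj-GAL4 unsorted replicate 2 lay among the sorted values, apart from the other 3 unsorted libraries.

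**Figure D2:**
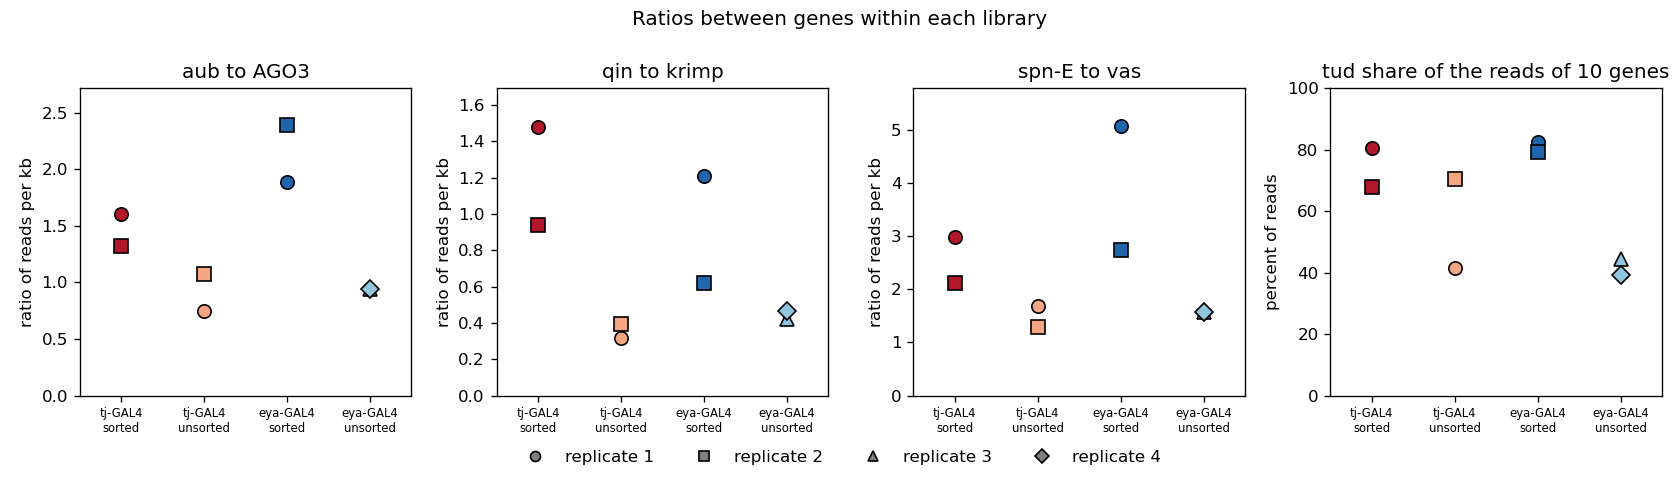
The first 3 panels show the ratio of reads per kilobase of 2 genes within each library, and the last the percent of the reads of the 10 genes that came from tud; groups are on the horizontal axis and symbols are libraries. In the first 3 panels each sorted library lay above every unsorted library, with aub to AGO3 at 1.32 to 2.39 against 0.746 to 1.07.

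krimp (FBgn0034098; 2R, 16238103 to 16240722, minus strand) encodes Krimper, a Tudor protein that binds both Argonautes of the cycle. It had 13.3 and 18.5 CPM in tj-GAL4 sorted cells, against 30.9 and 13.97 CPM in tj-GAL4 unsorted cells. It had 8.89 and 10.9 CPM in eya-GAL4 sorted cells, against 25.8 and 26.3 CPM in eya-GAL4 unsorted cells. The tj-GAL4 groups overlapped through unsorted replicate 2, and the eya-GAL4 groups were clearly separated. krimp fell by 1.39 ± 0.42 in eya-GAL4 sorted cells (adjusted p = 0.027, edgeR), a call lost without any 1 eya-GAL4 library (-1.55 to -1.26, adjusted p up to 0.15). Its tj-GAL4 change was -0.50 ± 0.41 (adjusted p = 0.41), which became -0.98 and was called without unsorted replicate 2 and became 0.19 without unsorted replicate 1.

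qin (FBgn0263974; 3R, 18591027 to 18650137, plus strand) encodes a Tudor protein with an E3 ligase domain that keeps the cycle running between Aubergine and Argonaute 3 rather than between Aubergine molecules. It had 47.2 and 41.6 CPM in tj-GAL4 sorted cells, against 23.7 and 13.1 CPM in tj-GAL4 unsorted cells. It had 25.7 and 16.2 CPM in eya-GAL4 sorted cells, against 25.9 and 29.5 CPM in eya-GAL4 unsorted cells. The tj-GAL4 sorted libraries were the highest of the 8, whereas the eya-GAL4 sorted ones lay below their unsorted controls, replicate 1 by little. The tj-GAL4 change was 1.27 ± 0.38 and did not pass the test (adjusted p = 0.068, edgeR). DESeq2 called it (1.17, adjusted p = 0.043), whereas limma (adjusted p = 0.66) and edgeR on the compared groups alone (adjusted p = 0.24) did not. The tj-GAL4 change was 1.76 without tj-GAL4 unsorted replicate 1 and 0.89 without tj-GAL4 unsorted replicate 2. The eya-GAL4 change was -0.41 ± 0.38 (adjusted p = 0.38).

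The ratio of qin to krimp reads per kilobase was 1.48 and 0.942 in tj-GAL4 sorted cells, against 0.320 and 0.392 in tj-GAL4 unsorted cells. It was 1.21 and 0.620 in eya-GAL4 sorted cells, against 0.420 and 0.468 in eya-GAL4 unsorted cells. Here too every sorted library exceeded every unsorted one. The same held for spn-E to vas, at 2.99 and 2.11 in tj-GAL4 sorted cells, against 1.68 and 1.30 in tj-GAL4 unsorted cells, and at 5.07 and 2.74 in eya-GAL4 sorted cells, against 1.58 and 1.57 in eya-GAL4 unsorted cells. The 3 pairs were picked with their values known, so that the ratios are descriptions.

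The remaining 3 genes were not called in either strain by edgeR with all 8 libraries. tej (FBgn0033921; 2R, 14300103 to 14302353, minus strand) encodes Tejas, a Tudor protein that recruits Vasa and Spindle-E. It had 2.77 and 3.33 CPM in tj-GAL4 sorted cells, against 4.05 and 1.57 CPM in tj-GAL4 unsorted cells, and 2.79 and 1.82 CPM in eya-GAL4 sorted cells, against 3.36 and 2.44 CPM in eya-GAL4 unsorted cells. Its changes, 0.10 ± 0.54 and -0.34 ± 0.55, had SEs larger than their size, and the groups overlapped in both strains (adjusted p = 0.90 and 0.61, edgeR).

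BoYb (FBgn0037205; 3L, 22901912 to 22905470, plus strand) encodes Brother of Yb, a germline relative of the somatic protein Yb. It had 8.53 and 6.62 CPM in tj-GAL4 sorted cells, against 9.63 and 2.83 CPM in tj-GAL4 unsorted cells, and 8.99 and 9.16 CPM in eya-GAL4 sorted cells, against 7.40 and 8.49 CPM in eya-GAL4 unsorted cells. It was the only gene of the set whose eya-GAL4 sorted libraries both exceeded the tj-GAL4 sorted ones. Its changes were 0.26 ± 0.52 in tj-GAL4 (adjusted p = 0.73, edgeR) and 0.19 ± 0.52 in eya-GAL4 cells (adjusted p = 0.77).

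squ (FBgn0267347; 2L, 16680054 to 16681653, plus strand) encodes Squash, a nuage protein that binds Aubergine. It had 36.6 and 46.6 CPM in tj-GAL4 sorted cells, against 59.9 and 30.2 CPM in tj-GAL4 unsorted cells, and 44.5 and 35.2 CPM in eya-GAL4 sorted cells, against 59.7 and 63.7 CPM in eya-GAL4 unsorted cells. The tj-GAL4 sorted values fell inside the range of their control, and the eya-GAL4 sorted values lay below theirs. The changes were -0.12 ± 0.37 (adjusted p = 0.83, edgeR) and -0.63 ± 0.38 (adjusted p = 0.18). Over 18 alternatives the eya-GAL4 change ran from -1.31 to -0.47 and was called in 3.

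**Figure D3:**
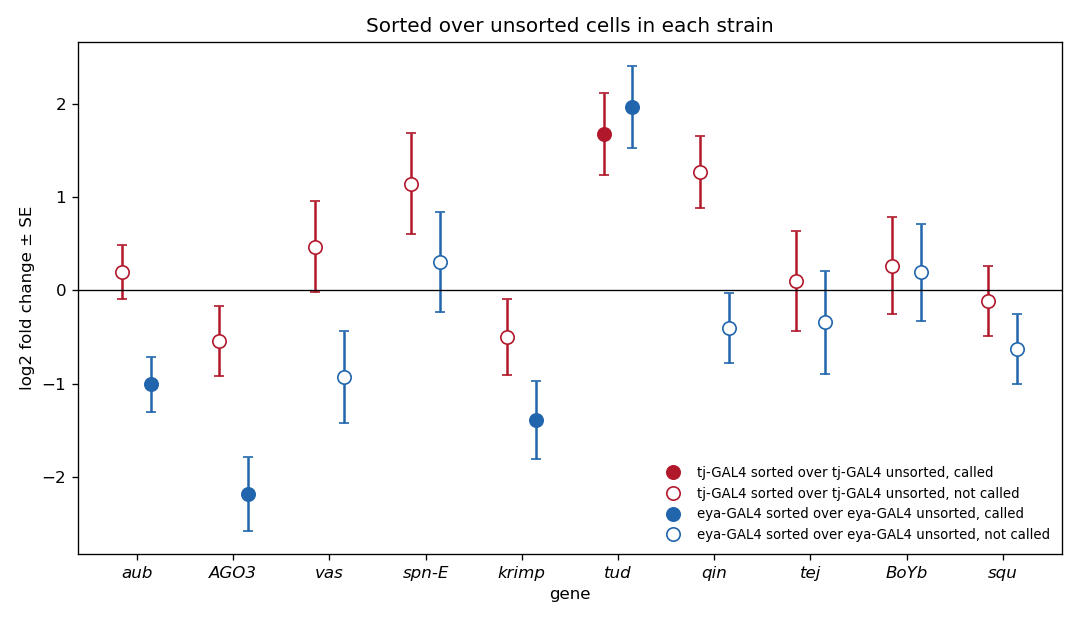
Log2 fold change of sorted over unsorted cells for each gene, tj-GAL4 left of eya-GAL4, with bars for ± 1 SE of the edgeR fit (n = 2 libraries per group) and filled points for calls. tud lies above 0 in both strains, at 1.68 and 1.97, AGO3 has the lowest eya-GAL4 value, -2.19, and qin has its values on opposite sides of 0, at 1.27 and -0.41.

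Separation of the libraries was wider than the calls. In tj-GAL4 cells 3 genes, tud, qin and spn-E, had both sorted libraries above both unsorted ones and none had them below, beside 32.9% and 22.9% of all tested genes. In eya-GAL4 cells 3 genes, tud, spn-E and BoYb, had both sorted libraries above and 6 genes had them below, beside 42.0% and 44.3%. The 6 were aub, AGO3, vas, krimp, qin and squ.

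Per kilobase of gene length, which makes genes comparable, squ and tud were the most abundant of the set in all 4 groups. tud averaged 78.8 CPM per kilobase in tj-GAL4 sorted cells and squ 30.3, against 24.6 and 32.8 in tj-GAL4 unsorted cells. In eya-GAL4 sorted cells tud averaged 72.6 and squ 29.0, against 18.6 and 45.0 in eya-GAL4 unsorted cells. The order of the top pair was thus turned round in both strains, but in tj-GAL4 unsorted cells the libraries of squ and tud overlapped. spn-E came next in both sorted groups, at 12.6 in tj-GAL4 and 8.90 in eya-GAL4 cells, with no overlap with its neighbours. tej was the least abundant gene in all 4 groups, at 1.57 and 1.19 in tj-GAL4 and eya-GAL4 sorted cells, against 1.45 and 1.495 in the unsorted cells of those strains.

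Between these ends the order was less firm. In tj-GAL4 sorted cells aub, qin, krimp, AGO3 and vas followed spn-E from 8.27 down to 4.99 CPM per kilobase, and each overlapped its neighbour. In eya-GAL4 sorted cells AGO3, at 2.26, was the ninth of the 10, below vas at 2.40 and BoYb at 2.55, while in eya-GAL4 unsorted cells it was the third at 10.3. In tj-GAL4 unsorted cells all neighbours but tud and krimp overlapped.

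**Figure D4:**
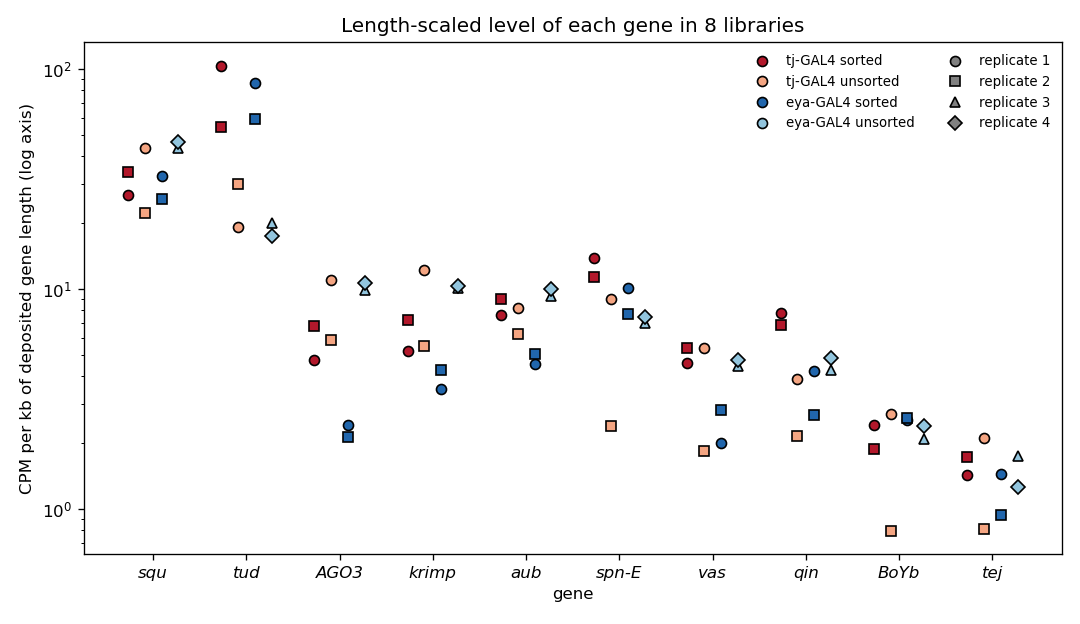
CPM per kilobase of deposited gene length on a log axis, for each gene and library, genes ordered by their mean in eya-GAL4 unsorted cells; within a gene the groups run from tj-GAL4 sorted to eya-GAL4 unsorted. The tud libraries of sorted cells stand highest, between 54.4 and 103, and the tj-GAL4 unsorted replicate 2 library is the lowest for squ, spn-E, vas, qin, BoYb and tej.

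The sorted populations of the strains were compared next, tj-GAL4 against eya-GAL4. No gene of the set was called by edgeR, where 0.0239% of all tested genes were called higher and 0.0875% lower, and 3 genes had an unadjusted p under 0.05. AGO3 was higher in tj-GAL4 sorted cells by 1.35 ± 0.39 (unadjusted p = 0.0072, adjusted p = 0.31), qin by 1.09 ± 0.38 (unadjusted p = 0.020, adjusted p = 0.43) and aub by 0.78 ± 0.30 (unadjusted p = 0.028, adjusted p = 0.45). These 3 and vas, spn-E and krimp had both tj-GAL4 libraries above both eya-GAL4 ones, beside 29.3% of all tested genes, and BoYb had both below, beside 27.6%. tud differed by 0.12 ± 0.43 (adjusted p = 0.91), a difference whose sign changed with RLE scaling (-0.01). By DESeq2 no gene of the set was called either. When only the 4 sorted libraries were fitted, 3 genes of the set were called higher in tj-GAL4 cells, AGO3 among them (adjusted p = 0.0019), in a fit that called 1262 of the 12570 genes either way. Leaving out tj-GAL4 unsorted replicate 1 or 2 gave 2 calls in the set each, of 742 and 721 over all genes.

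In the unsorted cells, tj-GAL4 against eya-GAL4, no gene of the set was called by edgeR or had an unadjusted p under 0.05, where 0.0239% of all tested genes were called higher and 0.0477% lower. The lowest adjusted p was 0.60, for qin at -0.59 ± 0.38. aub and qin had both tj-GAL4 unsorted libraries below both eya-GAL4 ones, beside 11.5% of all tested genes. Without tj-GAL4 unsorted replicate 1, which leaves only the library that stood apart, 5 genes of the set were called lower, in a fit that called 3943 of the 12570 genes either way.

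Whether sorting changed a gene by a different amount in tj-GAL4 than in eya-GAL4 cells was tested as an interaction. No gene of the set was called by edgeR, nor was any of the 12570 (0.0%), and 3 genes of the set had an unadjusted p under 0.05. The difference of the log2 changes was 1.67 ± 0.54 for qin (unadjusted p = 0.013, adjusted p = 0.33), 1.64 ± 0.53 for AGO3 (unadjusted p = 0.014, adjusted p = 0.33) and 1.203 ± 0.42 for aub (unadjusted p = 0.019, adjusted p = 0.33). It was positive for 9 of the 10 genes, with tud the exception at -0.29 ± 0.61, and its median was 0.87, beside -0.03 over all tested genes. Without tj-GAL4 unsorted replicate 2 that median was 0.33, and without tj-GAL4 unsorted replicate 1 there were 6 genes of the set called, all with a positive difference, in a fit that called 4204 of the 12570 genes. The falls of AGO3, krimp and aub in eya-GAL4 cells are therefore not shown to differ from the tj-GAL4 changes.

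Averaged over the strains, sorted against unsorted, tud rose by 1.82 ± 0.31 (adjusted p = 0.0026, edgeR), AGO3 fell by 1.36 ± 0.27 (adjusted p = 0.0048) and krimp fell by 0.95 ± 0.29 (adjusted p = 0.026), where 29.9% of all tested genes were called higher and 26.3% lower. The average joins strain changes of different sizes, -0.54 and -2.19 for AGO3. The calls of tud and AGO3 held without each of the 8 libraries in turn, and that of krimp was lost when tj-GAL4 sorted replicate 1 or any 1 eya-GAL4 library was left out (adjusted p up to 0.098). Leaving out tj-GAL4 unsorted replicate 1 or 2 gave 6 calls in the set each, in fits that called 7917 and 8778 of the 12570 genes.

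Markers of the germline moved in the same comparisons. The 10 early germline markers (nos, bam, bgcn, zpg, stet, tut, ovo, otu, Phf7 and mei-P26) summed to 202 and 244 CPM in tj-GAL4 sorted cells, against 432 and 152 CPM in tj-GAL4 unsorted cells, and to 115.1 and 86.8 CPM in eya-GAL4 sorted cells, against 409.6 and 465 CPM in eya-GAL4 unsorted cells. In tj-GAL4 cells none of the 10 was called and their median change was -0.01, but without tj-GAL4 unsorted replicate 2, 3 of them fell and the median was -0.42, and leaving out 1 library gave up to 2 calls higher. In eya-GAL4 cells 5 fell and none rose, with a median of -1.36. mei-P26, a regulator of germ cell differentiation, had 114 and 121 CPM in tj-GAL4 sorted cells, against 232 and 68.9 CPM in tj-GAL4 unsorted cells. It fell by 2.29 in eya-GAL4 sorted cells (adjusted p = 0.012, edgeR), to 60.6 and 39.1 CPM, against 232 and 255 CPM in eya-GAL4 unsorted cells. bgcn, needed for germ cells to leave the dividing state, fell by 2.42 there (adjusted p = 0.0074). Both calls were lost without either eya-GAL4 sorted library, and that of mei-P26 also without eya-GAL4 unsorted replicate 4 (adjusted p up to 0.11).

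The 17 spermatocyte markers summed to 3798 and 6957 CPM in tj-GAL4 sorted cells, against 9662 and 7080 CPM in tj-GAL4 unsorted cells, with no call and a median change of -0.94. Without tj-GAL4 unsorted replicate 2, 12 of the 17 fell in tj-GAL4 sorted cells and the median was -1.485. They summed to 3455 and 3298 CPM in eya-GAL4 sorted cells, against 8403 and 9708 CPM in eya-GAL4 unsorted cells, where 16 of the 17 fell and the median was -2.06. Of the 12 spermatid markers, 2 fell in tj-GAL4 and 11 in eya-GAL4 sorted cells. These counts depended on single libraries: leaving out 1 library gave 0 to 9 falls of spermatid and 0 to 12 of spermatocyte markers in tj-GAL4 cells, and 1 to 12 of spermatid, 2 to 17 of spermatocyte and 0 to 6 of early germline markers in eya-GAL4 cells. The lowest sums of the early germline list thus stood in the eya-GAL4 sorted libraries, where AGO3, krimp, aub and vas also had their lowest levels, with the exception of the lower vas level in tj-GAL4 unsorted replicate 2. Of the 10 genes, 6 had both eya-GAL4 sorted libraries below both unsorted ones, and 3, tud, spn-E and BoYb, had them above. These shares stand beside 44.3% and 42.0% of all tested genes. The 12 muscle markers summed to 801 and 752.5 CPM in tj-GAL4 sorted cells, against 2112 and 2029 CPM in tj-GAL4 unsorted cells, and to 977 and 799 CPM in eya-GAL4 sorted cells, against 1446 and 2164 CPM in eya-GAL4 unsorted cells. The fat body markers summed to 20.7 and 31.9 CPM in tj-GAL4 sorted cells, against 98.2 and 422 CPM in tj-GAL4 unsorted cells. There 6 of 6 tested fell, a count that also depended on single libraries. Of these 6, Fbp2 and Lsp1alpha reached 1 CPM only in tj-GAL4 unsorted libraries and were tested only through the group where they were high. The sums were 18.7 and 19.3 CPM in eya-GAL4 sorted cells, against 44.7 and 48.3 CPM in eya-GAL4 unsorted cells, where 1 fell. The 8 accessory gland markers summed to 642 and 529.7 CPM in tj-GAL4 sorted cells, against 769.7 and 1770 CPM in tj-GAL4 unsorted cells, where 2 fell, and to 609 and 464 CPM in eya-GAL4 sorted cells, against 2139 and 2989 CPM in eya-GAL4 unsorted cells, where 6 fell. The part of germ cell, muscle, fat body and accessory gland RNA in the changes of the ping-pong genes was not tested.

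Other groups of small RNA genes were described for comparison, from lists of known members. Their counts stand beside 8.98% of all tested genes called higher and 2.38% lower in tj-GAL4 sorted cells. In eya-GAL4 sorted cells these shares were 28.0% and 20.0%. The same shares apply to the marker lists above, and no list was tested against them. Of 12 genes of piRNA biogenesis, 4 rose and none fell in tj-GAL4 sorted cells, with a median change of 0.65, and 3 rose and 3 fell in eya-GAL4 sorted cells, with a median of 0.15. fs(1)Yb, which encodes the Yb protein of the somatic pathway, had 47.3 and 40.0 CPM in tj-GAL4 sorted cells, against 9.67 and 3.53 CPM in tj-GAL4 unsorted cells, and rose by 2.71 ± 0.47 (adjusted p = 0.010, edgeR). In eya-GAL4 sorted cells it had 43.4 and 34.3 CPM, against 10.1 and 9.69 CPM in eya-GAL4 unsorted cells, and rose by 1.97 ± 0.46 (adjusted p = 0.011). shu, which encodes the co-chaperone Shutdown, rose by 2.005 ± 0.42 and 1.33 ± 0.41 in tj-GAL4 and eya-GAL4 sorted cells. SoYb, for Sister of Yb, rose by 1.78 ± 0.40 in tj-GAL4 sorted cells and had a change of 0.30 ± 0.39 in eya-GAL4 sorted cells. daed, listed as CG10880 in the table, encodes Daedalus of the outer mitochondrial membrane and rose by 1.44 ± 0.37 and 1.96 ± 0.38. Hen1, which methylates the ends of piRNAs, and vret, for the Tudor protein Vreteno, fell by 1.80 ± 0.35 and 1.54 ± 0.43 in eya-GAL4 sorted cells.

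The calls of these genes depended on single libraries. In tj-GAL4 cells fs(1)Yb was no longer called when sorted replicate 1 was left out (adjusted p = 0.10), nor were shu, SoYb and daed when either sorted library was, among others. In eya-GAL4 cells fs(1)Yb was lost without sorted replicate 1 or either unsorted library, daed without unsorted replicate 4, and Hen1 without sorted replicate 2 or unsorted replicate 4. shu was called in 2 of the 8 fits that leave out 1 library and vret in 4.

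Of 9 other nuage and Tudor genes, 2 rose and none fell in tj-GAL4 sorted cells (median 0.32), and 1 rose and 2 fell in eya-GAL4 sorted cells (median 0.18). tapas, a Tudor gene that acts with qin, had 184.5 and 145 CPM in tj-GAL4 sorted cells, against 74.7 and 74.4 CPM in tj-GAL4 unsorted cells. It had 169 and 149 CPM in eya-GAL4 sorted cells, against 70.6 and 71.4 CPM in eya-GAL4 unsorted cells, and rose by 1.14 ± 0.29 (adjusted p = 0.039, edgeR) and 1.16 ± 0.29 (adjusted p = 0.014). The tj-GAL4 call held in 2 of the 8 fits that leave out 1 library, those without a tj-GAL4 unsorted library, and the eya-GAL4 call in 4 of 8, those without a tj-GAL4 library. SoYb was the other rise in tj-GAL4 cells, and vret and CG9925 were the falls in eya-GAL4 cells. mael, which encodes Maelstrom of nuage and nucleus, had changes of 0.16 ± 0.44 and -0.30 ± 0.44 (adjusted p = 0.80 and 0.57).

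Of 15 genes of nuclear silencing by piRNAs, 1 rose in tj-GAL4 sorted cells and 3 in eya-GAL4 sorted cells, and none fell, with medians of 0.64 and -0.01. piwi, the Argonaute that somatic gonadal cells use, had 84.1 and 76.0 CPM in tj-GAL4 sorted cells, against 11.1 and 7.93 CPM in tj-GAL4 unsorted cells. It had 50.7 and 34.4 CPM in eya-GAL4 sorted cells, against 10.02 and 8.67 CPM in eya-GAL4 unsorted cells. It rose by 3.07 ± 0.35 (adjusted p = 0.0021, edgeR) and by 2.19 ± 0.34 (adjusted p = 0.0027), and both calls held without each of the 8 libraries in turn. The directions of piwi and AGO3, both PIWI-clade genes, were thus opposite in eya-GAL4 sorted cells. The gene for heterochromatin protein HP1a rose by 0.94 ± 0.28 and Nxt1, an RNA export cofactor, by 1.92 ± 0.54 in eya-GAL4 sorted cells, and both calls were lost without either unsorted library of that strain.

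Of 11 genes for transcription and export of piRNA clusters, 1 rose in tj-GAL4 sorted cells (median 0.57), and 5 rose and 4 fell in eya-GAL4 sorted cells (median -0.30). moon, for the cluster transcription factor Moonshiner, had 1.27 and 1.55 CPM in tj-GAL4 sorted cells, against 0.112 and 0.314 CPM in tj-GAL4 unsorted cells, and rose by 2.84 ± 0.66 (adjusted p = 0.030, edgeR). It had 3.10 and 2.97 CPM in eya-GAL4 sorted cells, against 0.0622 and 0.0889 CPM in eya-GAL4 unsorted cells, and rose by 5.17 ± 0.73 (adjusted p = 0.0019). Only 146 reads of moon were counted over the 8 libraries, and its unsorted values lay near the floor, so the sizes of these changes are uncertain. moon reached 1 CPM only in sorted libraries and thus passed the filter only through the groups where it was high. Its tj-GAL4 call held only without tj-GAL4 unsorted replicate 2, and its eya-GAL4 call held without each library in turn. thoc7 of the THO complex and the export helicase Hel25E rose by 1.56 ± 0.32 and 1.53 ± 0.32 in eya-GAL4 sorted cells, where del, for the cluster protein Deadlock, fell by 2.17 ± 0.44. These 3 calls were each lost without eya-GAL4 sorted replicate 2 or unsorted replicate 4 (adjusted p up to 0.077).

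rhi, for the cluster chromatin protein Rhino, had 92.7 and 0.970 CPM in eya-GAL4 sorted cells, against 1.87 and 2.58 CPM in eya-GAL4 unsorted cells. Its values in tj-GAL4 were 5.31 and 2.52 CPM in sorted cells, against 2.90 and 0.942 CPM in unsorted cells. The eya-GAL4 change of 4.38 ± 1.55 (adjusted p = 0.046, edgeR) rested on sorted replicate 1 alone and had the other sign, -1.19, without it.

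Of 9 genes of the miRNA and siRNA pathways, 2 rose in tj-GAL4 sorted cells (median 0.45), and 3 rose and 2 fell in eya-GAL4 sorted cells (median 0.23). Dcr-2, the Dicer of siRNAs, rose by 2.48 ± 0.37 in tj-GAL4 (adjusted p = 0.0055, edgeR) and by 2.83 ± 0.38 in eya-GAL4 sorted cells (adjusted p = 0.0015). drosha, for the nuclear miRNA processing enzyme, rose by 1.80 ± 0.30 (adjusted p = 0.0083) and 2.57 ± 0.31 (adjusted p = 0.00097). Neither was called in tj-GAL4 cells when sorted replicate 1 was left out (adjusted p = 0.051 and 0.077), and both eya-GAL4 calls held without each library in turn. AGO2, the siRNA Argonaute, rose by 0.94 ± 0.29 and loqs, a partner of Dicer, fell by 1.45 ± 0.42 in eya-GAL4 sorted cells, each lost without any 1 eya-GAL4 library. Without tj-GAL4 unsorted replicate 2 the tj-GAL4 medians of these small RNA lists were all lower. They were 0.36 for piRNA biogenesis, 0.09 for other nuage and Tudor genes and 0.54 for nuclear silencing. For cluster transcription and export the median was 0.11, and for the miRNA and siRNA pathways 0.43.

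**Figure D5:**
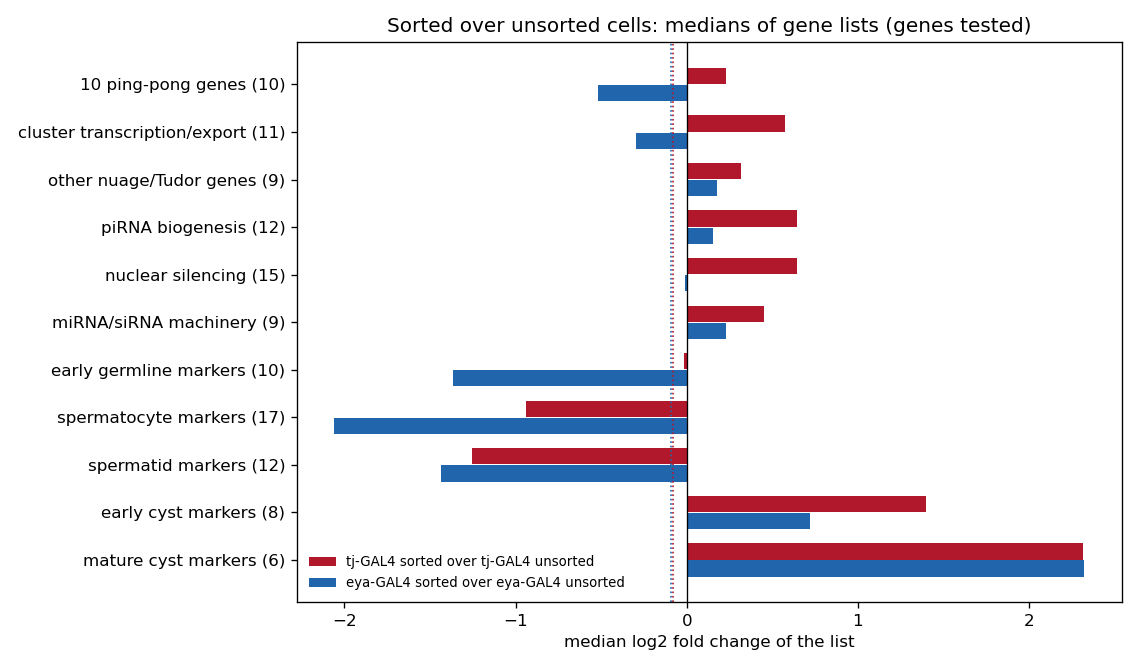
Median log2 fold change of sorted over unsorted cells for the tested genes of each list (number in brackets), tj-GAL4 above eya-GAL4, with dotted lines at the medians of all tested genes, -0.08 and -0.09. The 10 ping-pong genes had 0.23 and -0.52, early germline markers -0.01 and -1.36, and mature cyst markers 2.32 in both strains. Without tj-GAL4 unsorted replicate 2 the tj-GAL4 medians of these lists were -0.25, -0.42 and 2.20. Of the mature cyst markers, 5 rose and 1 fell in each strain.

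Some of the 10 genes share sequence with neighbours, and the sources used here do not say how shared reads were counted or whether strand was used, although the library kit keeps strand per the labels. vas shares 563 exon bases, 24.6% of its exon bases, with solo on the same strand. solo, needed for cohesion of sister chromatids in meiosis, had 1.35 and 2.05 CPM in tj-GAL4 sorted cells, against 1.97 and 0.549 CPM in tj-GAL4 unsorted cells, and 0.414 and 0.485 CPM in eya-GAL4 sorted cells, against 1.058 and 1.91 CPM in eya-GAL4 unsorted cells. vig lies on the other strand inside a vas intron with no shared exon base, and had changes of 0.06 ± 0.31 and -0.22 ± 0.31. squ shares 223 exon bases, 16.3%, with grp on the same strand. aub shares 79 exon bases with TTLL4A, and qin 17 with CG31224 and 21 with CG14304, on the opposite strand.

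The 10 genes did not follow one pattern over the 8 libraries. Among their 45 pairs, the root mean square distance between centred log2 CPM values was smallest for tej and squ (0.296), aub and squ (0.324) and aub and krimp (0.326), and largest for AGO3 and tud (1.73). Against the mean pattern of the set, tej was the nearest member at 0.215 and tud the farthest at 1.059. The 5 other genes nearest to that mean, of 5157 ranked, were mle (0.0698), Cbl (0.0810), Clamp (0.108), l(1)G0045 (0.109) and eRF3 (0.114). A mean of 10 profiles is smoother than any single one, and all genes share the depth and scaling of the 8 libraries. mle, for a helicase of dosage compensation, had 79.6 and 74.3 CPM in tj-GAL4 sorted cells, against 78.0 and 43.1 CPM in tj-GAL4 unsorted cells, and 58.3 and 50.7 CPM in eya-GAL4 sorted cells, against 72.4 and 78.3 CPM in eya-GAL4 unsorted cells.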

How the data were processed

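Poly(A)+ RNA libraries of 4 groups, 2 per group, were analysed. Per the submitters' processing notes, FastQC, Bowtie 1.2.2, HTSeq, DESeq2 and dm6 were used. Not given in the sources used here are the annotation release, the strand setting and the treatment of multiply matching reads. The authors deposited raw counts per gene, and RPM values computed by the authors from library totals of 30669063 to 38507084, which served only for alternatives. A further 20 value columns were not used. The eya-GAL4 unsorted columns are numbered 3 and 4 as in the table.

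Counts were tested with edgeR 4.0.16 (R 4.3.3; at least 1 CPM in at least 2 libraries, TMM, quasi-likelihood, all 4 groups in 1 fit with 4 residual degrees of freedom, two-sided, Benjamini-Hochberg over 12570 genes, 0.05). SE is the size of the log2 fold change divided by the square root of F. Alternatives were DESeq2 1.42.0, limma 3.58.1 on log2(RPM + 1), other scalings and filters, a replicate block and leaving out each library. In simulated counts for the tj-GAL4 comparison (12570 genes), 73 of 100 genes changed by a log2 of 2, 99 of 100 changed by 4 and 7 of 12370 unchanged genes were called. The simulation gave every gene and library the same dispersion. The real tj-GAL4 unsorted libraries differed from each other more than the replicates of other groups did. These rates therefore do not carry over to the real comparison. Positions are from Ensembl release 115 (BDGP6, the dm6 assembly), and levels per kilobase use the deposited gene length.

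The labels call the libraries biological replicates without saying what separates them, so p-values measure the spread between these libraries. The tj-GAL4 replicate 1 libraries carry indexes of 6 bases and the replicate 2 libraries of 8 bases. Named were all 10 genes, called genes of the other small RNA lists (up to 4 per list and strain in order of p, with piwi, mael, rhi, solo and vig regardless), up to 2 of the most abundant markers of a cell type list and the 5 genes nearest to the set's mean pattern. The genes and lists were chosen with earlier results of these data known. The list genes boot, rye and cola were not analysed here.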

Additional observations from a re-analysis of the deposited data

How the results depend on the processing

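The alternatives covered 35 changes of single genes in 618 refits: 532 kept direction and side of the threshold, 29 passed it newly, 37 no longer passed it and 20 changed sign, and 25 of the 35 changes never changed sign. Counts of called genes were less stable, in a fit with 4 residual degrees of freedom. In tj-GAL4 cells, where 1 gene was called, the count was 0 with RLE scaling, deposited totals, a minimum of 5 CPM, limma or the compared groups alone. These fits called 1298, 533, 1206, 589 and 248 of all tested genes, against 1428. With DESeq2 the count was 2, in a fit that called 2530. The genes called also changed when 1 library was left out. Without tj-GAL4 unsorted replicate 1 these were qin, spn-E, tud, BoYb and vas, all higher, and without unsorted replicate 2 they were tud higher with AGO3 and krimp lower, in fits that called 3374 and 4456 of all 12570 genes, against 1428. In eya-GAL4 cells, where 4 were called, the count was 1 with deposited totals or limma. These fits called 2312 and 2247 of all tested genes, against 6028. With the compared groups alone the eya-GAL4 count was 6, with 1 higher and 5 lower, in a fit that called 8977 of all tested genes. The eya-GAL4 count also changed, up or down, when 1 library was left out. Averaged over strains, where 3 were called, the count was 1 with deposited totals or limma, in fits that called 3421 and 3107 of all tested genes, against 7068. It also changed when 1 library was left out. Between the sorted groups it was 3 with those groups alone and 0 to 2 without 1 library, between the unsorted groups 0 to 5, and for the interaction 0 to 6, all beside 0.

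The tj-GAL4 libraries share replicate numbers, but the deviations of same-numbered libraries ran against each other (r = -0.33 across genes), so the numbers were not taken as pairs. With the replicate number as a block 0 genes of the set were called in tj-GAL4 cells, in a fit that called 1190 of all tested genes, against 1428. The block changed no other call count of the set by more than 1.5 times. Crossed numbers, chosen after seeing the data, gave 2 calls in the set, in a fit that called 2637 of all tested genes.

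Sign changes in tj-GAL4 cells were tej at -0.016 with RLE, -0.18 with deposited totals and -0.017 with DESeq2, and BoYb at -0.17 with deposited totals. Without 1 library the tj-GAL4 changes ran from -0.005 to 0.41 for aub, -0.12 to 1.46 for vas, -0.98 to 0.19 for krimp, -0.55 to 0.46 for squ, -0.43 to 0.96 for tej and -0.37 to 1.41 for BoYb, the extremes all coming without an unsorted tj-GAL4 library. In eya-GAL4 cells spn-E was at -0.38 with deposited totals and -0.37 with limma, and BoYb at -0.43 with deposited totals and -0.38 with limma. Averaged over strains qin was at -0.087 with deposited totals. Between sorted groups tud was at -0.009 with RLE and with DESeq2, and from -0.47 to 0.51 without 1 library. Deposited totals moved the median of all tested genes to -0.18 in tj-GAL4, -0.70 in eya-GAL4 and -0.48 over both. The causes were not tested.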

Other observations

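Transcripts of the Stellate repeats, which germline piRNAs of the testis are known to silence, had few reads in both sorted and unsorted cells. Over the 8 libraries together, 14 reads were counted for Ste:CG33236 and 2 for Ste12DOR, genes named here after their values were seen. Neither gene reached 1 CPM in any library, and reads of such near-identical copies are uncertain because the treatment of multiply matching reads is not known. Other Stellate copies were not analysed here.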
